A study of Homo sapiens with 9 samples.

Results

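The features described here are the array probes that read long intergenic RNA (lincRNA) intervals, that is, gene probes whose name consists of the word lincRNA and a chromosomal interval with a strand letter, F or R. They were taken by name alone, with no measured value, and numbered 7660 of the 42405 gene probes of the array. The measurements came from A2780, an established human ovarian carcinoma cell line, cultured untreated or with DIG-MSK, a mithramycin A analogue of the aureolic acid family, at 8 nM or 80 nM for 24 h. Each group had 3 biological replicates, and the total RNA of each was labelled with Cy3 and read on 1 array. Aureolic acid compounds bind C/G-rich DNA in the minor groove, and the comparisons address how each concentration changed the transcripts of the cells.

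Long intergenic RNAs are transcribed from DNA between protein-coding genes, mostly by RNA polymerase II, and many are spliced and polyadenylated although they encode no known protein. They are typically present at lower levels than messenger RNAs and often in fewer cell types. Some have known roles, among them NEAT1, the scaffold of nuclear paraspeckles, and JPX, an RNA from the X inactivation centre, whereas most have no assigned function.

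The 7660 features lay in 4853 intervals on 23 chromosomes (hg19 coordinates from the array files). Of these intervals, 2558 carried 1 feature, 1910 carried 2 and 385 carried 3 or more, up to 10 in each of 4 intervals. Interval length ran from 70 bp to 1392201 bp, with a median of 11301 bp and quartiles of 5115 and 30726 bp. The letters were nearly balanced, with 3761 F and 3899 R features, and 2022 intervals had both. Where a later name allowed the strand to be compared with RefSeq, the letter F went with the plus strand or R with the minus strand for 321 of 323 features.

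The name was not fixed for every feature. The untreated and 8 nM arrays were on 1 slide and the 80 nM arrays on another, and the second slide's files carried a later issue of the design in which 915 of the features had another name. Of those, 329 became RefSeq noncoding transcripts (NR_), 169 RefSeq messenger RNAs (NM_) and 159 Ensembl transcripts. A RefSeq symbol was found for 461, of which 266 were long noncoding RNA genes, all on the chromosome of their interval, and 162 were protein-coding, 128 of them on the chromosome of their interval. A feature placed on chromosome X, for example, was later assigned to PCNA on chromosome 20, and 1 placed on chromosome 3 to TET1 on chromosome 10. The intergenic label therefore did not hold for all features, and the 6745 with an unchanged name are given separately where they differ. Probe sequences were not analysed here.

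The promoters of the 3 long noncoding RNA genes with the most measured features are shown because their transcripts were each read many times over and because GC-rich promoter elements are known binding targets of the compound's family. The sequences are from RefSeq (GRCh38.p14, 250 bases before to 50 after the start, minus strand for all 3, written 5′ to 3′). Capitals mark the GC box, GGGCGG on either strand (so also CCGCCC). SNHG5 is at chr6:85678684-85678983, GARS1-DT at chr7:30577730-30578029 and HCG18 at chr6:30327107-30327406.
SNHG5: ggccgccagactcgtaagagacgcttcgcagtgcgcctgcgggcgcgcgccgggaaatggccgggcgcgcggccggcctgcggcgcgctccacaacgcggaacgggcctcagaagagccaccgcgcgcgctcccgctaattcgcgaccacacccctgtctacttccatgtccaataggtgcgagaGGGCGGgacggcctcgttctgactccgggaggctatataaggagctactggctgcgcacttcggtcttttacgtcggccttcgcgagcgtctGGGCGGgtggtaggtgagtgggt
GARS1-DT: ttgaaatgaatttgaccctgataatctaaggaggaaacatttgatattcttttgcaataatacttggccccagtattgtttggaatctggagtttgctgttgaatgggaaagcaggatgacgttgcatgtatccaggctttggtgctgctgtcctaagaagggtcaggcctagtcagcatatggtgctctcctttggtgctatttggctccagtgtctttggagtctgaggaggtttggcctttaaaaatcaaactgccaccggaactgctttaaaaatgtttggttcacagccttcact
HCG18: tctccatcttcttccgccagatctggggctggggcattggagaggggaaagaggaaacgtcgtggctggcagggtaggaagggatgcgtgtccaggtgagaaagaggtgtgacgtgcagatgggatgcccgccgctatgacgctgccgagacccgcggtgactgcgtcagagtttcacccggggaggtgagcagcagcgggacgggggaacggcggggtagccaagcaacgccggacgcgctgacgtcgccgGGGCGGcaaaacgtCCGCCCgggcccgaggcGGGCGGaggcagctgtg
The SNHG5 window held 2 GC boxes at 67.7% GC, the HCG18 window 3 at 67.3% GC, and the GARS1-DT window 0 at 43.3% GC. Among all 35116 promoter windows of the same length, 45.0% held at least 1 box and the median GC content was 58.7%. These matches describe letters only, not binding.

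Between 46.5% and 59.1% of the lincRNA features were detected on an array, fewer than among the other gene probes in every group. Detection here means the scanner's call that a spot is well above background. The share was 53.7%, 56.2% and 54.3% on the untreated arrays (mean 54.7% ± 1.28, SD, n = 3), 52.6%, 46.5% and 51.5% at 8 nM (50.2% ± 3.26) and 56.5%, 59.1% and 51.5% at 80 nM (55.7% ± 3.88). For the 34745 other gene probes the means were 64.5% ± 0.599, 62.9% ± 1.56 and 63.2% ± 2.04. All 3 arrays at 8 nM were below all 3 untreated arrays for lincRNA features, a difference of -4.53 percentage points between the means (exact permutation test, two-sided, p = 0.1, the smallest that 3 against 3 allows). The 80 nM arrays overlapped the untreated arrays (difference 1.00, exact p = 0.6). Replicate 2 at 8 nM had the lowest share of all arrays, and its part in the 8 nM difference was not tested beyond the values without it given below.

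**Figure D1:**
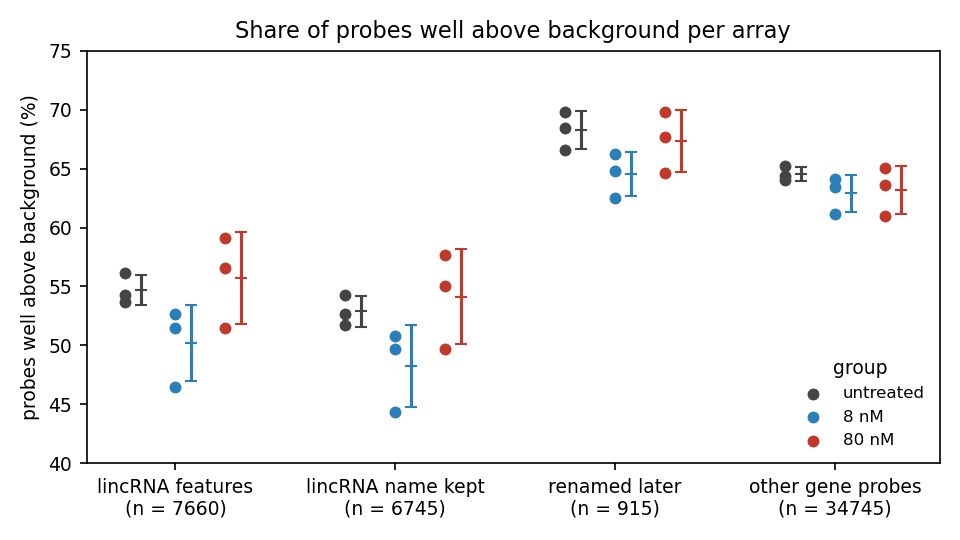
Share of probes well above background (y axis, %) on each of the 9 arrays (points), with group mean and SD beside them, for all lincRNA features, for those that kept or changed their name, and for the other gene probes. The shares over all lincRNA features run from 46.5% to 59.1% and lie below the shares of the other probes in every group.

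Detection differed among kinds of lincRNA features. Of the 7660, 3207 were detected on all 9 arrays, 2342 on none and 2111 on some. Features later given another name were detected more often than those that kept theirs, with 67.3% against 52.2% passing the filter for testing (detection on every array of a group). By chromosome the tested share was highest on chromosomes 17 (68.8%) and 19 (68.5%) and lowest on chromosome 18 (40.4%). By interval length it was 58.9% for intervals of 6083 to 12476 bp and 46.7% for those of 31884 to 1392201 bp. Of the 2022 intervals with both letters, 645 were detected with both on all untreated arrays, 440 with F only, 426 with R only and 511 with neither. Among the intervals with 10 features, chr5:86405094-86425344 and chr6:73130154-73135679 had no tested feature and chr8:16386879-16489654 had 2.

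In all, 4137 lincRNA features (54.0%) in 3078 intervals were tested, against 64.2% of the other probes. A change is the log2 difference of processed intensity scaled to each array's 75th percentile. A feature was said to rise or fall when its adjusted p was under 0.05 and its ratio to the other group was 1.5 or more, or 0.67 or less (limma over 26433 probes, Benjamini-Hochberg). The arrays measured bulk RNA, so fewer cells carrying a transcript and less transcript per cell cannot be told apart.

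At 8 nM few lincRNA features changed, and their changes were centred slightly below 0. Of the 4137, 48 rose (1.16%) and 54 fell (1.31%), where 3.55% of all probes tested rose and 1.66% fell. The median change was -0.16 on the log2 scale (-0.06 over all probes tested). Relative to the untreated mean, the median shift was -0.03, -0.29 and -0.13 on the 3 arrays at 8 nM, and on the untreated arrays it stayed between -0.03 and 0.03. The second array thus had the largest shift, and without it the median was -0.08. Both groups were on the same slide. Scaling to the spike-in controls left 11 rises and 2 falls, with 381 and 28 among all probes. With the replicate number as a block over these 6 arrays, 27 features rose and 21 fell, with 682 and 215 among all probes. With the unadjusted p in place of the adjusted p, 67 rose and 162 fell, where 4.09% of all probes tested rose and 3.2% fell. The count of falls by adjusted p ran from 24 without untreated replicate 3 to 107 without 8 nM replicate 1. In the same fits 293 and 696 of all probes fell.

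The largest rise at 8 nM was at chr6:48044816-48070216, R, an interval with no gene name. It read -2.61, -2.37 and -2.15 untreated and -0.40, -0.33 and -0.26 at 8 nM, a change of 2.05 ± 0.11 (SE, adjusted p = 5.7e-05, limma with Benjamini-Hochberg), and all 3 arrays at 8 nM were above every untreated array. At 80 nM the same feature read -1.09, -1.09 and -1.11, a smaller rise of 1.28. The feature at chr10:90739245-90750265, R, read -4.43, -4.86 and -4.64 untreated, -3.12, -3.54 and -3.38 at 8 nM and -2.56, -2.22 and -2.47 at 80 nM. It rose by 1.30 and 2.22, so that here the 3 groups were in order of concentration without overlap. A feature at chr1:26210671-26219098, R, later assigned to STMN1 (stathmin, a regulator of microtubules), showed the same order, with rises of 1.18 and 2.19. The other leading rises were chr3:112308735-112319860, R (1.34), chr18:48545077-48556102, F (1.23), and chr2:47558914-47559517, R (1.22). Of these 6 rises, chr3:112308735-112319860 lost its call under 5 alternatives, namely normexp correction, a fit of the untreated and 8 nM arrays blocked by replicate number, and leaving out any 1 untreated array, and the STMN1 feature under 3, namely normexp correction, the authors' values and the same blocked fit.

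The leading falls at 8 nM ranged from -1.32 to -0.88. The feature at chr12:117562392-117569365, R, read -2.96, -1.56 and -1.62 untreated and -3.40, -3.41 and -3.29 at 8 nM, a change of -1.32 ± 0.33 (adjusted p = 0.035, limma with Benjamini-Hochberg). The first untreated array was more than 1 log2 unit below the other two. Further falls were at chr7:125564239-125734564, F (-1.18), chr1:180915452-180923811, F (-0.99), chr18:49045977-49056377, R (-0.97), chr3:13093175-13147525, R (-0.91), and chr8:141532461-141536259, R (-0.88). The last read -0.42, -0.48 and -0.25 untreated, -1.10, -1.58 and -1.11 at 8 nM and -2.25, -1.87 and -1.90 at 80 nM, a fall at both concentrations. It lost its call only with scaling to the spike-in controls, whereas the other 5 falls lost theirs under 5 to 15 alternatives.

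At 80 nM about 1 in 3 tested lincRNA features changed, and rises outnumbered falls. Compared with untreated cells 916 rose (22.1%) and 502 fell (12.1%), where 18.1% of all probes tested rose and 16.7% fell. The median change was 0.17 (0.07 over all probes tested), and the 3 arrays were shifted by 0.18, 0.23 and 0.11. Compared with 8 nM, 1188 rose (28.7%; all probes 18.6%) and 343 fell (8.29%; all probes 14.1%), with a median of 0.32. All arrays at 80 nM were on their own slide, so concentration and slide cannot be told apart in these comparisons. The median signal of negative control spots was between 38.25 and 46.0 on the first slide and between 28.0 and 29.0 on the second, and the part of this background in the changes was not tested.

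The excess of rises depended on the scaling and on the level. When arrays were scaled to the spike-in controls, 378 lincRNA features rose and 649 fell compared with untreated cells, where 2121 of all 26433 probes tested rose and 6107 fell. The lincRNA median was then -0.10 and that of all probes -0.21. Compared with 8 nM the same scaling gave 362 rises and 567 falls, with 1504 and 6128 among all probes. Such a scaling shifts all probes of an array alike and so leaves the difference between these medians as it was. When all tested probes were divided into 3 equal classes by mean level, the lincRNA features of the dimmest class (2439) had a median change of 0.27 at 80 nM, those of the middle class (1229) 0.13 and those of the brightest class (469) -0.06. The other probes had medians of 0.06, 0.05 and 0.03 in the same classes. In the brightest class 39 lincRNA features rose (8.32%) and 66 fell (14.1%), and of the 8342 other probes in it 1000 rose (12.0%) and 1058 fell (12.7%). With the requirement of detection on all 9 arrays, 643 of 3207 rose and 351 fell, as did 3887 and 3301 of all 22859 probes. Normexp background correction left 341 rises and 269 falls, with 2883 and 2902 among all probes.

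**Figure D2:**
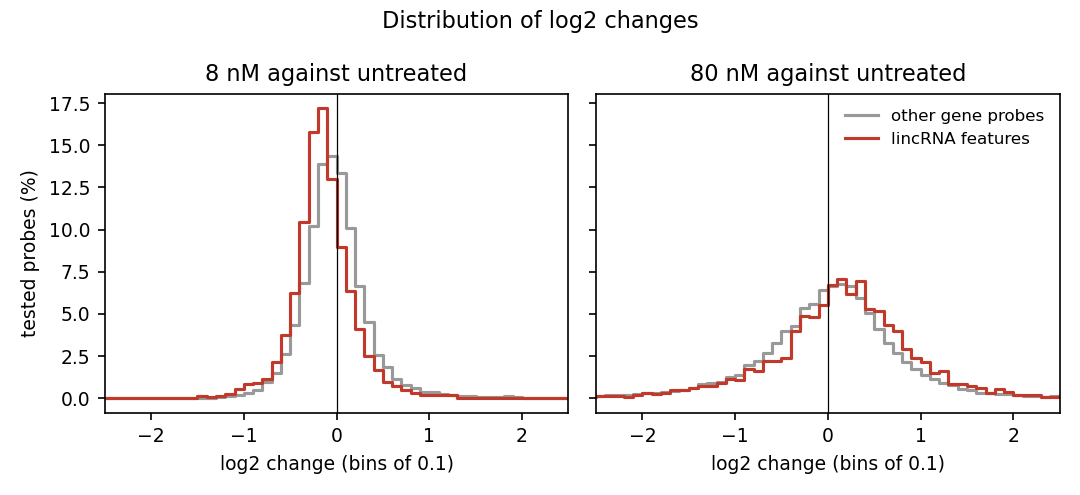
Distribution of log2 changes at 8 nM and 80 nM compared with untreated cells (x axis), as a percentage of tested probes (y axis), for lincRNA features and other gene probes. The lincRNA curve is shifted below the others at 8 nM (medians -0.16 and -0.04) and above them at 80 nM (medians 0.17 and 0.05).

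The counts of rises and falls varied with chromosome, strand letter and name status. On chromosome 2, 113 of 398 tested features rose at 80 nM and 57 fell, and on chromosome 13 the median change was the highest (0.37). On chromosomes 4, 17, 20, 21 and 22 falls were as many as rises or more, with 41 rises and 44 falls on chromosome 4 and 11 rises and 16 falls on chromosome 17. F features gave 417 rises (20.2%) and 268 falls (13.0%) and R features 499 (24.1%) and 234 (11.3%). Features that kept their name had a median of 0.19 (807 rose, 421 fell) and those later renamed 0.07 (109 rose, 81 fell). These are counts without a test between the classes. The other probes of each chromosome are not given beside them, and the classes were not matched for level.

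The largest rise among features detected on every array compared was at chr12:112749392-112757717, R. It read -5.18, -4.92 and -4.84 untreated, -5.45, -5.05 and -5.42 at 8 nM and -0.87, -0.74 and -0.60 at 80 nM, a change of 4.25 ± 0.14 (adjusted p = 1.4e-07, limma with Benjamini-Hochberg). The untreated and 8 nM arrays overlapped and the 80 nM arrays were far above both. A second R feature of the same interval, later assigned to HECTD4, fell by 0.90 (-0.59, -0.73 and -0.57 untreated; -1.78, -1.25 and -1.54 at 80 nM), so that features sharing an interval and letter went opposite ways. The next rises were chr15:49386958-49409333, R (3.17), chr9:2739400-2746875, R (3.12), chr6:64472483-64499031, F (3.07), chr1:85947965-85961941, R (2.88, later assigned to DDAH1, an enzyme that degrades asymmetric dimethylarginine), and chr14:61529972-61553247, R (2.84). In each of these, all 80 nM arrays were above all others.

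The largest fall was at chr2:133030255-133039274, R. It read -0.38, -0.16 and -0.09 untreated, -0.34, -0.61 and -0.75 at 8 nM and -4.54, -5.16 and -5.14 at 80 nM, a change of -4.74 ± 0.18 (adjusted p = 3.6e-07, limma with Benjamini-Hochberg). All 4 features of this and an almost identical interval, chr2:133030255-133039255, fell. The second fall was at chr6:22020628-22111150, F, later assigned to CASC15, a long noncoding RNA gene named for cancer susceptibility. It read -0.83, -1.78 and -1.18 untreated, -1.34, 0.14 and -1.57 at 8 nM and -5.76, -5.21 and -5.29 at 80 nM, a change of -4.16 ± 0.44. The R feature of that interval differed by 0.08 only, while an R feature of an overlapping interval, chr6:22056867-22194604, rose by 2.70, from -1.18, -1.27 and -1.10 to 1.40, 1.57 and 1.61.

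The falls at chr14:61529972-61553247, F (-3.88), chr4:23771777-23778877, R (-3.49), and chr6:114722782-114743483, F (-3.37), resembled CASC15 in detail. In these 4 features, which are on 3 chromosomes, replicate 2 was the highest array at 8 nM and above every untreated array, for example 0.13 against -1.03 and -1.30 at chr14:61529972-61553247, F. Their values correlated with each other over the 9 arrays between 0.972 and 0.995, and their deviations from the group means between 0.657 and 0.959. All were chosen as large falls at 80 nM, so the first range was set largely by that choice. The largest fall, chr2:133030255-133039274, R, correlated with those 4 between 0.949 and 0.963 over the 9 arrays, but between -0.386 and 0.06 in deviations. The sixth fall, chr4:15683379-15688001, R (-2.92), did not share the pattern either, with correlations of deviations with those 4 between -0.447 and -0.241. This set was noticed after the values were seen, and whether their probes read a shared sequence was not tested. Among the 502 fallen lincRNA features, 9 had replicate 2 at least 1 log2 unit above both other arrays at 8 nM. The same held for 4 with replicate 1 and 2 with replicate 3. In that order of replicates (2, 1 and 3), the numbers were 11, 16 and 6 among 3922 other probes that fell. They were 49, 21 and 21 among 2719 lincRNA features not called at 80 nM, and 2, 3 and 7 among the 916 that rose. More such values on replicate 2 were therefore not particular to the features that fell.

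**Figure D3:**
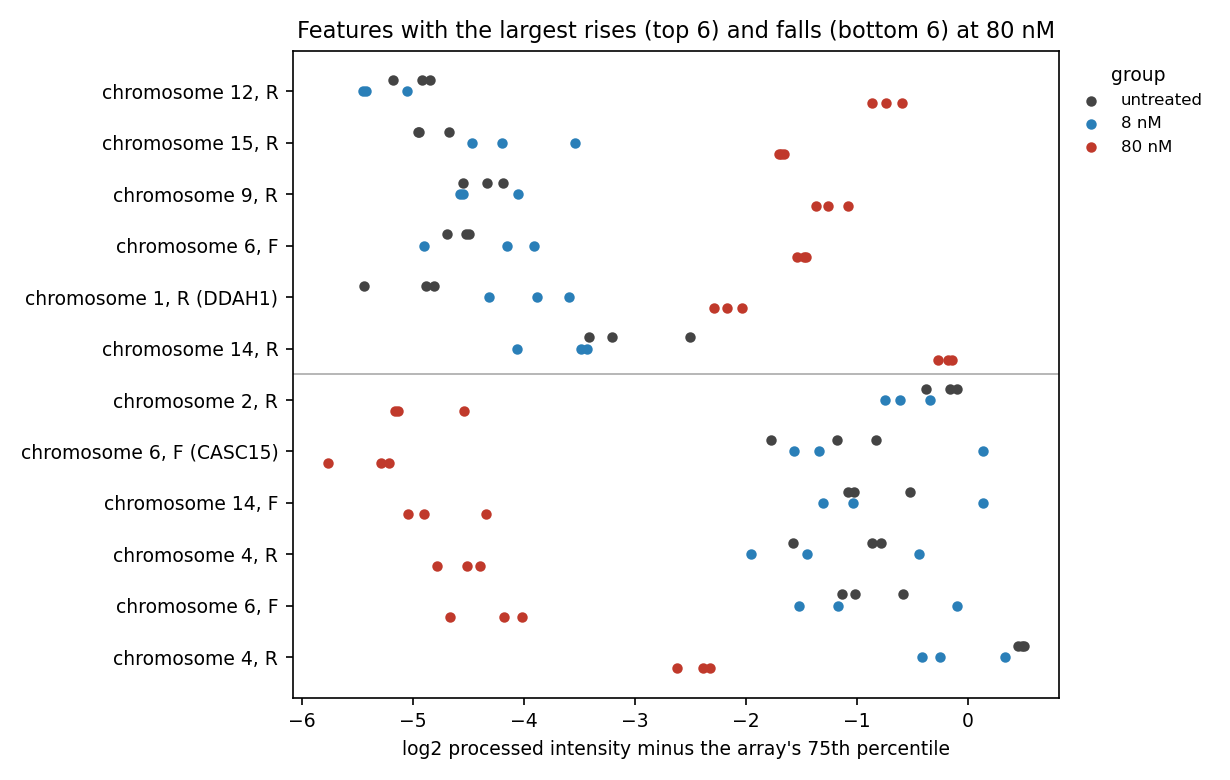
Log2 processed intensity minus the array's 75th percentile (x axis) on each of the 9 arrays for the 6 largest rises and 6 largest falls of lincRNA features at 80 nM (rows, labelled by chromosome and strand letter). The 80 nM points lie apart from both other groups in every row, and in 4 of the falling rows 1 array at 8 nM is the highest point.

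Some features were detected on all 3 arrays of 1 group and on none of the other, so that the change is only a bound. The bound compares the brighter group with the dimmest signal called above background on each array, or with the feature's own signal where that was higher. It is given for the main processing only. Between untreated and 80 nM, 89 lincRNA features appeared in this way and 76 disappeared. Among the 34745 other probes 248 appeared and 660 disappeared. At 8 nM, 1 appeared and 35 disappeared, and among the other probes 49 appeared and 94 disappeared. Features that entered the test only through the brighter group were selected by that difference, so no p-value is given for them here. An adjusted p under 0.05 served only to choose the features named. The feature at chr13:33868250-33874375, R, was not well above background on any untreated array (-8.04, -8.44 and -8.30) or at 8 nM. At 80 nM it read -1.56, -1.41 and -1.37, at least 24.7-fold higher, and it entered the test only through that group. Its interval ran over 6126 bp and had no gene name. Other bounds at 80 nM were at least 5.18-fold higher at chr1:101548009-101552817, F, and at least 4.60-fold higher at chr6:56709666-56716191, R. Signals at chr2:133030255-133039255, R, were at least 16.3-fold lower, those at chr22:25425263-25435032, F (later KIAA1671), at least 11.6-fold lower, and those at chr3:13093175-13147525, R, at least 10.3-fold lower. At 8 nM the bounds were smaller, at least 2.11-fold lower at chr11:28373636-28373861, F, and at least 1.79-fold higher at chr1:142789202-142921002, F. Under the alternatives changes could be smaller than these bounds. At 80 nM the smallest log2 change was 2.865 at chr13:33868250-33874375, R (log2 bound 4.628), and 0.954 at chr1:101548009-101552817, F (2.374). Every feature named here at 80 nM kept its call. At 8 nM the smallest was 0.184 at chr1:142789202-142921002, F. Its call was lost with normexp correction and with the authors' values.

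Agreement between features of 1 interval was compared for pairs with the same and with opposite strand letters. Among 314 pairs of tested features with the same interval and letter, 228 (72.6%) had changes of the same sign at 80 nM and 231 (73.6%) at 8 nM, with a Pearson correlation across pairs of 0.603 at 80 nM. At 80 nM both members rose in 34 pairs, both fell in 16 and they went opposite ways in 4. Among 894 pairs with opposite letters, 502 (56.2%) had the same sign at 80 nM, with a correlation of 0.005, and both rose in 48, both fell in 12 and they went opposite ways in 38. The median difference between members was 0.29 for the same letter and 0.63 for opposite letters. Pairs of the same letter may overlap in sequence and pairs share the 9 arrays, so the correlations are given without a test. For pairs detected on all 9 arrays they were 0.478 (240 pairs) and 0.066 (550 pairs).

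**Figure D4:**
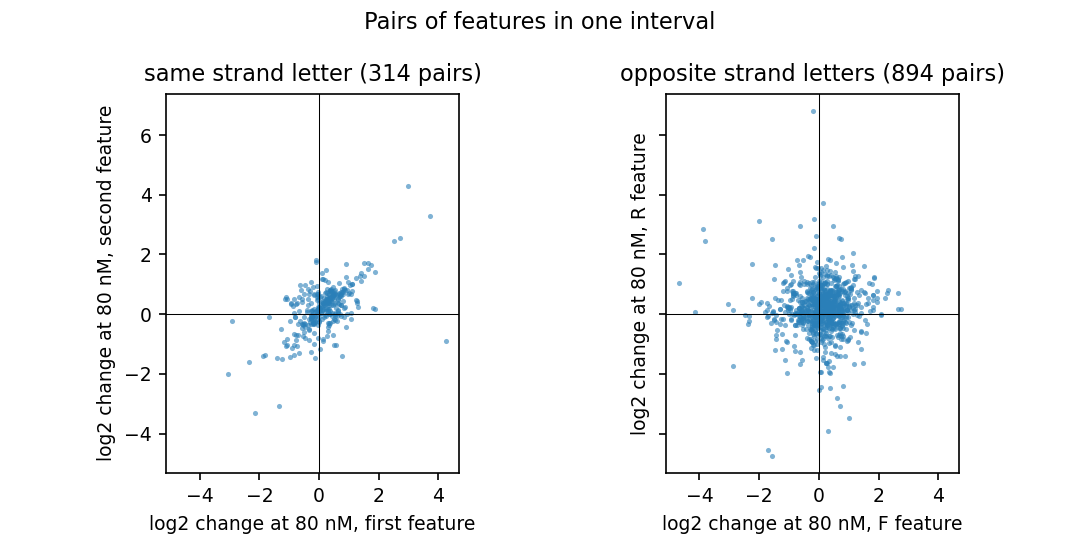
Log2 change at 80 nM of both members of a pair of features in the same interval (x and y axes), for pairs with the same strand letter (left, 314) and with opposite letters (right, 894). Points on the left lie along the diagonal (r = 0.603) and on the right show no trend (r = 0.005).

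The widest splits between letters were in intervals already named. At chr14:61529972-61553247 the R feature rose from -2.50, -3.42 and -3.20 to -0.27, -0.14 and -0.18 and the F feature fell from -0.52, -1.08 and -1.03 to -5.04, -4.34 and -4.89. At chr4:23771777-23778877 the F feature rose by 1.01 and the R feature fell by 3.49. At 8 nM the widest split, at chr9:132236854-132272279 (-2.98, F minus R), came from 1 spot: the F feature read 6.94, -4.57 and -3.77 untreated, and without the first array the difference was 0.76. Splits within a letter at 80 nM included chr4:15683379-15688001, R, where the other feature differed by -0.24, and chr12:7262124-7276175, R, with changes of 0.78 and -1.40.

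Several intervals, named because they had the most calls in 1 direction, had features that rose together. Among all tested lincRNA features 22.1% rose at 80 nM, and among all probes tested 18.1%. No share over all intervals is given. All 3 features of each of 5 intervals rose at 80 nM, namely chr10:1095825-1101640, chr1:204566252-204573127, chr1:32818738-32824593, chr4:76462801-76476026 and chr8:16534425-16772553. In the last, 3 R features rose, by up to 1.72. At chr8:16386879-16489654 the 2 tested features, both R, entered the test only through the 80 nM group, with 1 of them above background on 1 untreated array and the other on none, so no size is given. The intervals with the most tested features were mixed: at chr1:225175977-225243477, 2 of 4 fell (-1.08 and -1.03) and the others gave -0.84 and 0.50; at chr3:131086935-131098735, 2 of 4 rose (0.63 and 1.81); at chr3:160210781-160217931, the 2 R features, later assigned to the nuclear import receptor KPNA4, rose by 0.70 and 0.66.

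Changed features also lay next to each other across intervals. Runs were formed by joining intervals no more than 50000 bp apart, a rule chosen after values had been seen. Overlapping intervals share sequence, so their features are not independent. The runs given are the 3 with the most falls and the 3 with the most rises at 80 nM. Among all tested lincRNA features 22.1% rose and 12.1% fell at 80 nM, and among all probes tested 18.1% and 16.7%. At 8 nM the shares that rose were 1.16% and 3.55%. On chromosome 2, between 224475831 and 224588760, 9 of 10 R features rose at 80 nM, with a median of 2.14, and the median over these features was 2.11, 2.14 and 2.13 on the 3 arrays at 80 nM, against -0.07, -0.35 and -0.21 at 8 nM. The single F feature there, later assigned to MLX on chromosome 17, differed by -0.09. On chromosome 4, between 90365352 and 90646690, 11 of 12 F features fell, with a median of -1.86, whereas at 8 nM 3 of the 12 rose and the median was 0.35. On chromosome 15, between 25226682 and 25368649, 11 of 16 F features fell and none rose (median -1.21), while of 11 R features 3 fell and 3 rose. On chromosome 8, between 128807043 and 129118918, 16 of 39 tested features fell and 3 rose. On chromosome 19, between 28213935 and 28409954, 9 of 24 rose and none fell, and on chromosome 13, between 50557649 and 51263599, 8 of 20 rose and none fell.

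**Figure D5:**
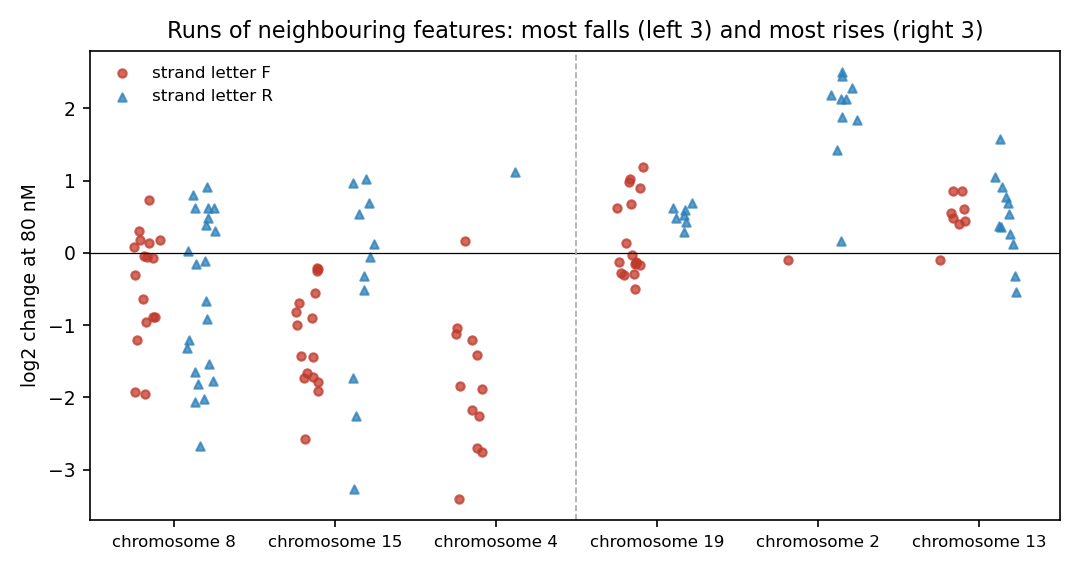
Log2 change at 80 nM compared with untreated cells (y axis) of each tested lincRNA feature in the 3 runs of neighbouring intervals with the most falls and the 3 with the most rises (x axis, by chromosome; circles F, triangles R). The R features of the chromosome 2 run range from 0.16 to 2.50 (median 2.14) and the F features of the chromosome 4 run from -3.40 to 0.17 (median -1.86).

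Long noncoding RNA genes read by many features gave repeated measurements of the same transcript. SNHG5, a host gene of small nucleolar RNAs, had 17 features in 17 intervals, all tested. Their median difference from the untreated mean was 0.06, 0.30 and -0.08 at 8 nM and -0.47, -0.28 and -0.33 at 80 nM. The changes at 80 nM lay between -0.54 and -0.19, all 17 below 0, with an adjusted p under 0.05 in 10 and none past the fold limit. A probe for SNHG5 outside the lincRNA names gave -0.37. GARS1-DT, transcribed divergently from the glycyl-tRNA synthetase gene, had 14 tested features with changes between 0.01 and 1.26 at 80 nM (median 0.52), 5 of which rose. HCG18, from the major histocompatibility complex region, had 12 with changes between -0.98 and 0.23, 2 of which fell.

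The changes of other genes varied in size and direction. LINC-PINT, a p53-induced transcript, had 10 tested features between -0.75 and 0.37, 2 of which fell. JPX had 8 between -0.51 and -0.23, none past the fold limit. The 4 features of SNHG17 ran from -0.44 to -0.37 at 80 nM and from -0.37 to -0.34 at 8 nM, with an adjusted p under 0.05 for all 4 at both concentrations and none past the fold limit. The 3 features of NEAT1 gave 0.47, 0.66 and 0.89 at 8 nM, where 2 rose, and lay between -0.04 and 0.45 at 80 nM, where none was called. Between the concentrations they differed by -0.51 to -0.45, with an adjusted p under 0.05 for all 3 and none past the fold limit. MALAT1, a nuclear speckle RNA next to NEAT1, gave 0.25 to 0.34 at 8 nM and -0.21 to 0.33 at 80 nM over 4 features, none called. Features later assigned to protein-coding genes went both ways at 80 nM. ZNF678, a zinc finger gene, had 3 of 3 that fell (-1.18 to -0.92), and KIAA1671 had 3 of 5 (median of the 5, -1.75). In contrast, 3 of 4 features of STRN rose, as did 2 of 5 of FAM200B and 2 of 6 of MAP3K13. None of the 6 of ERVMER34-1 was called.

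Of a list of 59 known long noncoding RNA genes, 12 had lincRNA features later assigned to them by name (62, of which 55 were tested). Features that kept their interval name were not matched to genes by position, so the list's genes may be read by more features than these. At 8 nM 2 of the 55 rose, both features of NEAT1, and none fell, where 3.55% of all probes tested rose and 1.66% fell. At 80 nM 2 rose and 3 fell, where 18.1% of all probes tested rose and 16.7% fell. HOTAIR, a transcript of the HOXC cluster, had 3 tested features at 0.28, 0.32 and 0.72, of which 1 rose. The list's genes were also read by 99 probes with other names, 60 of them tested, of which 4 rose and 12 fell at 80 nM. Among those that fell were all 4 probes for CRNDE (-2.92 to -2.51) and the probes for KCNQ1OT1 (-1.90), RPPH1 (-1.78), the RNA of ribonuclease P, RMRP (-1.31) and TERC (-1.27), the RNA component of telomerase. Those that rose were DGCR5 (2.68), 1 of 2 probes for TP53TG1 (1.27), HCP5 (0.81) and DLEU1 (0.60).

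The arrays themselves were close to each other. Over lincRNA features the correlation between arrays of a group was 0.9831 to 0.9875 for untreated cells, 0.9685 to 0.9871 at 8 nM and 0.9813 to 0.9844 at 80 nM. Of the markers checked for the cell line, EPCAM, KRT18, VIM and CDH2 were detected on all 9 arrays, whereas WT1, CDH1, MUC16 and MSLN were detected on none and PAX8 on some. Among markers of other cells PECAM1 was detected on none, and CD14, CDH5 and 1 of 4 PTPRC probes on all 9. Their part in the lincRNA results was not tested.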

How the data were processed

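Total RNA from 9 cultures of A2780 cells was hybridised to 1-colour Agilent SurePrint arrays, 3 per group. Per the file headers, the authors extracted spot values with Feature Extraction 10.7.3.1 on build hg19; the deposited intensity is background-corrected processed signal, not normalized between arrays. The labels and the study's methods name different labelling kits. The authors also deposited a table of normalized log2 values, which correlated with the log2 median signal of each array (0.99856 to 0.99981) and had medians of 6.889 to 6.901 over gene spots; its exact processing is not given in the sources used here, and it served as an alternative.

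Here log2 processed intensity minus each array's 75th percentile over gene spots was tested, without outlier spots. Probes detected (well above background) on every array of 1 or more groups, 26433 in all, entered limma 3.58.1 (R 4.3.3) with all 9 arrays and Benjamini-Hochberg adjustment. The threshold was an adjusted p of 0.05 with the fold limits of 1.5 and 0.67 from the study's methods. The study's lowess step needs a second channel and was not applied. Probes stayed separate. The number of arrays limits the precision, and p-values rest on 3 cultures per group. The script was tested on simulated data.

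Members were the 7660 probes named lincRNA with an interval on the first slide. Another 15 probes with an hg18 interval were left out. Later names came from the second slide's files, and symbols from RefSeq (GRCh38.p14), matching 26373 of 28140 probes with an accession. The members, gene lists and naming rules were chosen with earlier results of these data known. Features were named if they were the 6 largest rises or falls of a comparison (called, detected on all arrays of both groups and not overlapping), the 3 largest bounds, the 3 intervals with the most features or most tested features, the 3 widest pair differences detected on all 9 arrays, the 3 largest opposite changes, or in the intervals with the most calls. Runs of intervals and the set with a shared array profile were chosen after values were seen.

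Untreated and 8 nM arrays with the same replicate number deviated together (correlations 0.149, 0.156 and 0.212), a pairing seen in the data. The main fit, which gave the calls and p-values at 8 nM, did not include this pairing. Fits with the replicate number as a block are given as alternatives. The 80 nM arrays were not paired (-0.155 to 0.02). Alternatives were normexp background correction, other scalings, the authors' values, filters on dim probes, 1 probe per interval and letter, only the groups compared, the replicate block, other call rules, another detection flag and leaving out each array. After the data were seen, members with an unchanged name and a block on the untreated and 8 nM arrays alone were added.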

Additional observations from a re-analysis of the deposited data

Results flagged for a closer look

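The change at 80 nM differed from that at 8 nM in direction for 7 lincRNA features called at both, and the 3 with the largest difference are given here. The number among all probes tested is not given. Features called in opposite directions and ranked by the difference were chosen for a large one, so no p-value is given for it. At chr2:47558914-47559517, R, values were -3.16, -3.44 and -3.67 untreated, -1.89, -2.26 and -2.45 at 8 nM and -5.40, -5.79 and -5.70 at 80 nM. The difference was -3.43, and 2 of the 3 arrays at 80 nM were above background. At chr4:90602655-90605092, F, the changes were 0.72 and -1.88, a difference of -2.61. Its call at 8 nM was lost in the paired fit of untreated and 8 nM arrays, with spike-in scaling and without 8 nM replicate 1. At chr4:90603427-90616902, F, values were -1.02, -0.98 and -0.91 untreated, -0.32, -0.34 and -0.29 at 8 nM and -2.83, -2.80 and -2.80 at 80 nM. The difference was -2.49, and its call at 8 nM was lost with spike-in scaling. The chromosome 4 intervals overlap, so their features do not count as independent. In all 3 features the groups did not overlap, and the 80 nM arrays were on a slide of their own, which cannot be told apart from the concentration.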

How the results depend on the processing

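Of the summary results under all alternatives, 245 values stayed within their limits, 34 moved and 4 reversed; of the named features' tests, 990 kept their call and direction and 83 lost the call, none reversing. With normexp correction 19 features rose and 24 fell at 8 nM, 341 and 269 at 80 nM, and 453 and 151 between concentrations (median 0.22). Among all probes tested the counts were 495 and 266, 2883 and 2902, and 2806 and 2383. With spike-in scaling the counts were 11 and 2 at 8 nM, 378 and 649 at 80 nM, and 362 and 567 between concentrations. Among all probes they were 381 and 28, 2121 and 6107, and 1504 and 6128. The medians at 80 nM reversed (-0.10 and -0.035), and same-letter pairs of the same sign were 67.8% at 8 nM and 65.6% at 80 nM. With the authors' values 25 rose and 35 fell at 8 nM, and 481 rose and 360 fell at 80 nM (median 0.12). Between concentrations 620 rose and 237 fell (0.21). Among all probes these counts were 665 and 302, 3433 and 3583, and 3196 and 3137. Scaling to the median gave medians of 0.11 and 0.21. Without a filter on dim probes the median between concentrations was 0.19 and pairs at 8 nM 67.1%. In a fit of only the groups compared, 36 rose and 32 fell at 8 nM, with 838 and 323 among all probes. Without a fold limit 97 rose and 155 fell at 8 nM, and 1409 rose and 713 fell at 80 nM. The counts among all probes without that limit are not given. With the unadjusted p 162 fell at 8 nM, with 846 among all probes. The detection difference at 80 nM reversed with the positive and significant flag (-1.01). Leaving out 1 array gave 24 to 107 falls at 8 nM, with 293 and 696 among all probes in the same fits. It also gave same-sign pairs at 8 nM of 70.4% to 79.0% and a detection difference at 80 nM from -0.70 to 3.11. The pair difference at chr9:132236854-132272279 then ran from -5.11 to 0.76 (-2.98 with all arrays). The causes were not tested, except that the last came from 1 untreated spot.

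A replicate block over all 9 arrays gave 45 rises and 44 falls at 8 nM, with 902 and 372 among all probes. The paired fit of untreated and 8 nM arrays, added after the data were seen, gave 27 and 21, of which 39 were among the 102 called without the block. Among all probes that fit gave 682 and 215. Low signal also limits the results: 2342 of 7660 features were never above background, and the slide of the 80 nM arrays had a lower background.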
